A study of Mus musculus with 24 samples.

Results

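Cytochromes P450 of families 1 to 3 are the monooxygenases that oxidize drugs, steroids, fatty acids and environmental chemicals, and the liver is their main site of expression. They sit in the endoplasmic reticulum and take electrons from the flavoprotein Por. Their genes form tandem clusters of close paralogs, and many are induced by ligand-activated factors: Ahr for the Cyp1 genes, and CAR (Nr1i3) and PXR (Nr1i2) for the Cyp2b, Cyp2c and Cyp3a genes. Hnf4a and the C/EBP factors maintain their basal expression in hepatocytes. Members were chosen by symbol: every protein-coding gene in the count table whose name starts with Cyp1, Cyp2 or Cyp3 followed by a letter. This gave 61 genes among 54532 rows. They lie on 9 chromosomes, with 15 on chromosome 7, 15 on chromosome 19, 10 on chromosome 5, and 8 each on chromosomes 4 and 15.

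Their transcripts were followed by RNA-seq in 24 livers of male C57/BL6J mice after a 24 h fast, 4 from each of 6 groups. Rab30L-/- mice lacked the Golgi GTPase Rab30 in hepatocytes, where albumin-Cre had recombined a floxed allele. Cpt2L-/- mice lacked carnitine palmitoyltransferase 2 in the same cells, and with it mitochondrial oxidation of long-chain fatty acids. DKO mice lacked both genes in liver, and the ff;ff mice were their littermates with both floxed alleles and no Cre. Rab30KO mice carried the Rab30 deletion in every tissue, and wild-type littermates (Rab30 Ctrl) served as their controls. The labels do not say that the Cpt2L-/- or Rab30L-/- mice were littermates of the ff;ff or DKO mice. Genotype and litter therefore cannot be told apart in any comparison that uses either group. Albumin-Cre targets hepatocytes, so Rab30 and Cpt2 may stay intact in the other cells of the liver, which was not examined. Library totals ranged from 11801027 to 24497738 counts. The counts of Rab30 and Cpt2 include exons outside the deleted ones and check the labels only in part. Rab30 stood at 101 to 231 CPM, the counts scaled to library size, in DKO livers against 122 to 188 in Cpt2L-/- livers. It stood at 10.4 to 26.6 CPM in Rab30L-/- against 25.9 to 44.6 in ff;ff livers. In Rab30KO livers it was at 5.39 to 17.4 CPM against 6.64 to 30.1 in Rab30 Ctrl livers, so these ranges overlapped too. Cpt2 stood at 95.3 to 167 CPM in Cpt2L-/-, 96.1 to 120 in DKO and 128 to 139 in ff;ff livers, so its counts did not separate Cpt2L-/- from ff;ff livers. Groups are therefore named by their labels.

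A few promoters are shown first, because paralogs with nearly the same promoter stood at very different levels. Each line gives the 120 bases before the RefSeq transcription start (GRCm38.p6), 5′ to 3′ on the gene's strand. Capitals mark 2 motifs on either strand: a TATA box (TATAAA) and an Hnf4a-type site (CAAAGTCCA). The first 4 genes carry the Hnf4a-type site and were lower in Cpt2L-/- or DKO livers. The deposited gene boundary lies 110 bases before the RefSeq start for Cyp3a11 and 47 bases before it for Cyp2c70 and Cyp2c68, so part of these windows lies within the gene as deposited.
Cyp3a11 (chr5:145879855-145879974, minus strand): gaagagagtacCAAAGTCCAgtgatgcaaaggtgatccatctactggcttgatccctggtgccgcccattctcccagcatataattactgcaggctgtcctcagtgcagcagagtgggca
Cyp2c70 (chr19:40187287-40187406, minus strand): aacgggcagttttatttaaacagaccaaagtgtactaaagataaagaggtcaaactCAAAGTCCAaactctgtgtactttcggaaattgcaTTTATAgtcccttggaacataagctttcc
Cyp2c40 (chr19:39812815-39812934, minus strand): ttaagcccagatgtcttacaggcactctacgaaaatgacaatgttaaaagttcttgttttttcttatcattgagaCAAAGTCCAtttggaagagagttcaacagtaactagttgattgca
Cyp2c68 (chr19:39741102-39741221, minus strand): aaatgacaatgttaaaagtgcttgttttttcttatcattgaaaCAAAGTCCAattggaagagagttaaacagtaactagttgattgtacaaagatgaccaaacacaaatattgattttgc
The next 4 are a pair of near-identical paralogs on chromosome 7, Cyp2a5 with Cyp2a4, and a second pair, Cyp2a12 with Cyp2a22.
Cyp2a5 (chr7:26835219-26835338, plus strand): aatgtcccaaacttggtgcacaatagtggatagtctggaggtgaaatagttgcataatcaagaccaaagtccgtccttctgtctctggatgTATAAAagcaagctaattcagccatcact
Cyp2a4 (chr7:26307072-26307191, plus strand): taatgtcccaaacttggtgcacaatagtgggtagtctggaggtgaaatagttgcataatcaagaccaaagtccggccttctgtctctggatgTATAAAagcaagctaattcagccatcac
Cyp2a12 (chr7:27028970-27029089, plus strand): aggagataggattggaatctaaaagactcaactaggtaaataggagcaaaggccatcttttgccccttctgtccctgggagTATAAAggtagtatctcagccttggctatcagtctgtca
Cyp2a22 (chr7:26939387-26939506, minus strand): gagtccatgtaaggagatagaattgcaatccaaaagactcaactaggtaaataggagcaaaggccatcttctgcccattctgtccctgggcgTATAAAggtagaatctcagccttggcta

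Aligned without gaps, Cyp2a4 and Cyp2a5 were identical at 117 of 119 bases, yet in ff;ff livers Cyp2a5, the coumarin and nicotine hydroxylase, stood at 758 to 1109 CPM and Cyp2a4, a steroid hydroxylase of female liver, at 0.488 to 2.03 CPM. Cyp2a12 and Cyp2a22 were identical at 102 of 109 bases and stood at 456 to 657 and at 0.437 to 1.77 CPM. In Cyp3a25 and Cyp3a59, identical at 111 of 119 bases, the ff;ff levels were 910 to 2109 and 62.2 to 179 CPM. The distal elements and introns of these genes were not analysed here. RefSeq gave a start for 53 of the 61 members. In the 250 bases before the start, the Hnf4a-type site was found in 10 of these 53 members, or 18.9%, against 0.374% of all 27025 promoters. The TATA box was found in 47.2% of members and 12.9% of all promoters. The core of the Ahr response element (GCGTG) was found in 9 of the 53 members and 28.3% of all promoters. Paralogs inherit such sites together, so the members are not independent observations. Of the 19 members with a start that were lower in Cpt2L-/- or DKO livers in the results below, 5 held the Hnf4a-type site (Cyp3a11, Cyp2c40, Cyp2c67, Cyp2c68 and Cyp2c70), against 0 of 15 that were tested and not lower. The other 5 carriers were among 19 members tested against ff;ff in neither Cpt2L-/- nor DKO livers. This was the same share of 26.3% as among the lower members. Of these 5, Cyp2c69 and Cyp3a16 were tested in another comparison. A nuclear receptor half-site (AGGTCA) split the members in the same way, with 7 of 19 lower, 0 of 15 not lower and 7 of 19 not tested, and was found in 13.9% of all promoters. A second half-site (AGTTCA) was found in 4 of 19, 0 of 15 and 4 of 19, and in 11.9% of all promoters. The C/EBP site (TTGCNNAA) was found in 4 of 19 lower and 4 of 15 not lower members, and in 9.54% of all promoters. GCGTG went the other way, in 1 of 19 lower and 4 of 15 not lower members. The TATA box was found in 11 of 19 and 7 of 15, and the Hnf1 half-site in 3 of 19 and 2 of 15. The Hnf1 half-site (GTTAAT) was found in 11.3% of members and 6.47% of all promoters, the STAT5 site (TTCNNNGAA) in 3.77% and 7.04%, and the everted repeat bound by CAR and PXR in 0 promoters. These matches describe the letters in the window and were picked from 9 motifs after the expression results were known. They say nothing on whether a factor bound there.

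In ff;ff livers the members took 2.28 to 2.85% of all counted reads. Cyp2e1, the ethanol and acetaminophen oxidase of pericentral hepatocytes, was the highest member per length, at 5736 ± 957 CPM per kilobase (SD, n = 4), and made 41.6 to 46.2% of the members' summed CPM. Cyp3a11, the main mouse counterpart of human CYP3A4, followed at 945 ± 208 CPM per kilobase. Cyp2d9, a testosterone hydroxylase of male liver, stood at 896 ± 185 and did not differ from Cyp3a11 beyond their spread. Cyp3a25, at 698 ± 241, Cyp2d10, at 567 ± 67.0, and Cyp2d26, at 560 ± 103, overlapped within their SDs too. The same 10 members were highest in the FPKM values of the authors. At the other end, 19 members passed the filter on low counts in none of the comparisons, and 6 of these had no count in any of the 24 livers (Cyp2c66, Cyp2j7, Cyp2j11, Cyp2j12, Cyp2j13 and Cyp2w1). None of the 19 exceeded 1.09 CPM in any liver. Female-type members such as Cyp2b13, Cyp3a41a and Cyp3a44 were among them. The tests below thus cover 42 members, of which 36 were tested in every pairwise comparison.

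**Figure D1:**
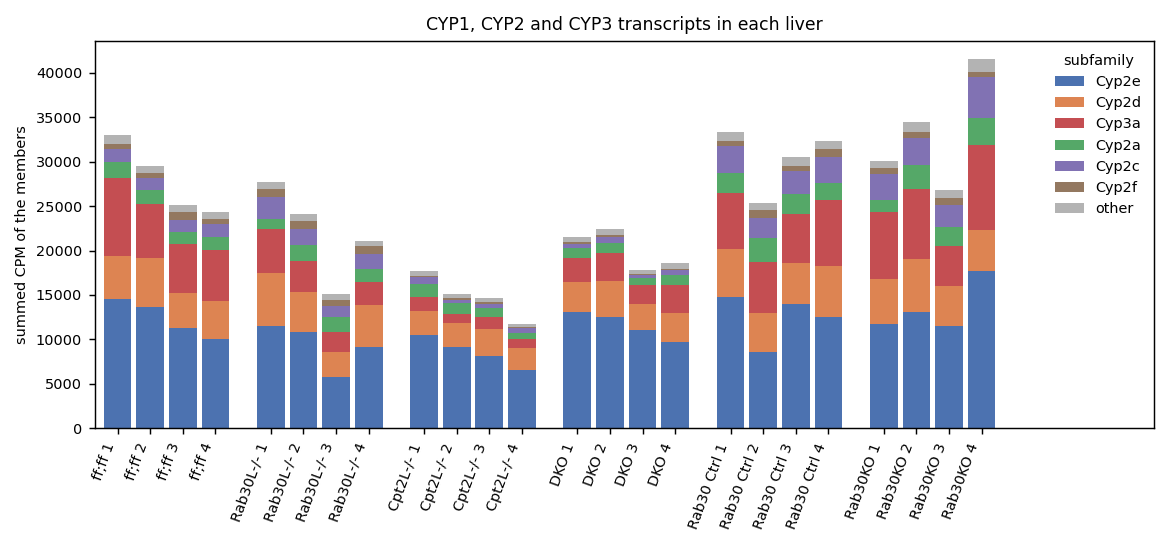
Summed CPM (y axis) of the 61 members in each of the 24 livers (x axis, grouped by genotype), stacked by subfamily. The bars of the Cpt2L-/- livers reach 11741 to 17661 CPM and those of the DKO livers 17825 to 22418, all below the 24277 to 32988 of the ff;ff livers.

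Much of the family was lower in Cpt2L-/- than in ff;ff livers, a comparison that addresses the loss of hepatic fatty acid oxidation during fasting. The summed level of the members fell from 27966 ± 4055 CPM in ff;ff to 14785 ± 2425 in Cpt2L-/- livers (SD, n = 4 each), and the groups did not overlap. Of 36 members tested, 19 were lower and 1 was higher by edgeR's quasi-likelihood test. A gene was called when its adjusted p was below 0.05 and it differed 1.2-fold or more. Among all 13270 genes tested 11.9% were called lower, 11.9% higher and 23.8% in either direction. In 18 members every Cpt2L-/- liver lay below every ff;ff liver and in 0 above, against 12.5% and 14.2% of all genes. The median log2 fold change was -0.89 over the tested members and 0.00 over all genes. In these bulk samples, fewer hepatocytes and less RNA per hepatocyte cannot be told apart. Hepatocyte markers also fell, 5 of 6 of them, and their summed level was 37054 to 48767 CPM in Cpt2L-/- against 85231 to 108975 in ff;ff livers. Of the 5 endothelial markers 1 was lower, of the 6 stellate markers 0 were called, and 3 of the 6 Kupffer cell markers were lower. Of the 4 bile duct markers tested 1 was lower, and their summed level was 9.57 to 24.0 CPM in Cpt2L-/- against 15.3 to 31.9 CPM in ff;ff livers. The part of these markers in the results was not tested.

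The Cyp3a genes, whose enzymes carry out much of hepatic drug and steroid oxidation, held the largest fall in reads. Cyp3a11 (chromosome 5) was counted at 6348, 4533, 4425 and 3937 CPM in the ff;ff livers and at 613, 401, 604 and 451 in the Cpt2L-/- livers. Every Cpt2L-/- liver lay far below every control. The log2 fold change was -3.23 ± 0.22 (SE; adjusted p = 1.63e-06, edgeR), a 9.39-fold fall. Cyp3a59 stood at 62.2 to 179 CPM in ff;ff and at 12.8 to 21.7 CPM in Cpt2L-/- livers, with a log2 fold change of -2.55 ± 0.33 (adjusted p = 0.000269, edgeR). Cyp3a25 fell 2.57-fold, from 910 to 2109 CPM to 430 to 767 CPM. Cyp3a13, which is expressed in intestine as well as liver and lies outside the cluster of the other Cyp3a genes on chromosome 5, was not called, at 77.2 to 138 CPM in ff;ff and 80.9 to 201 CPM in Cpt2L-/- livers. The low Cyp3a16 was counted 8 to 23 times per library in ff;ff and 0 times in all 4 Cpt2L-/- libraries, where a count of 0 allows up to 3 counts per library.

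The Cyp2c genes encode epoxygenases of arachidonic and linoleic acid, and 9 of the 11 tested were lower. Among them was Cyp2c70, the enzyme that makes the muricholic acids of mouse bile. It was counted at 53.8, 16.3, 96.0 and 31.7 CPM in ff;ff and at 1.41, 2.27, 5.37 and 1.44 CPM in Cpt2L-/- livers, a log2 fold change of -4.25 ± 0.70 (adjusted p = 0.00361, edgeR). The groups did not overlap, although the ff;ff livers themselves spread widely. Without Cpt2L-/- 3, the highest of its group, the log2 fold change was -4.86. Cyp2c54, an arachidonic acid epoxygenase, fell from 129, 151, 142 and 106 CPM to 34.7, 18.7, 16.6 and 20.04 CPM (log2 fold change -2.56 ± 0.23, adjusted p = 1.13e-05, edgeR). Its neighbour Cyp2c50 fell 2.76-fold and Cyp2c37 3.27-fold. About 6% of the 100-base stretches of Cyp2c50 and Cyp2c54 are shared between their transcripts, so a small part of their reads could have been assigned to either. Cyp2c23 was lower 3.14-fold. Cyp2c29, Cyp2c67 and Cyp2c68 were lower 1.82-fold, 1.76-fold and 1.77-fold, but these calls were lost when single livers were left out: Cyp2c29 without any of ff;ff 1, 2 and 4 or Cpt2L-/- 2, 3 and 4 (adjusted p up to 0.109), Cyp2c67 without Cpt2L-/- 2 (0.0533) and Cyp2c68 without ff;ff 4 or Cpt2L-/- 2 or 4 (up to 0.0642, edgeR). They were also lost in the fit over all 24 libraries (adjusted p = 0.0564, 0.0729 and 0.136), Cyp2c29 without a filter on low counts (0.0653), and Cyp2c67 with limma-voom (log2 fold change -0.53 in place of -0.82, 0.0575). Transcripts of Cyp2c67 and Cyp2c68 share 23.7% and 19.8% of their 100-base stretches with other genes.

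**Figure D2:**
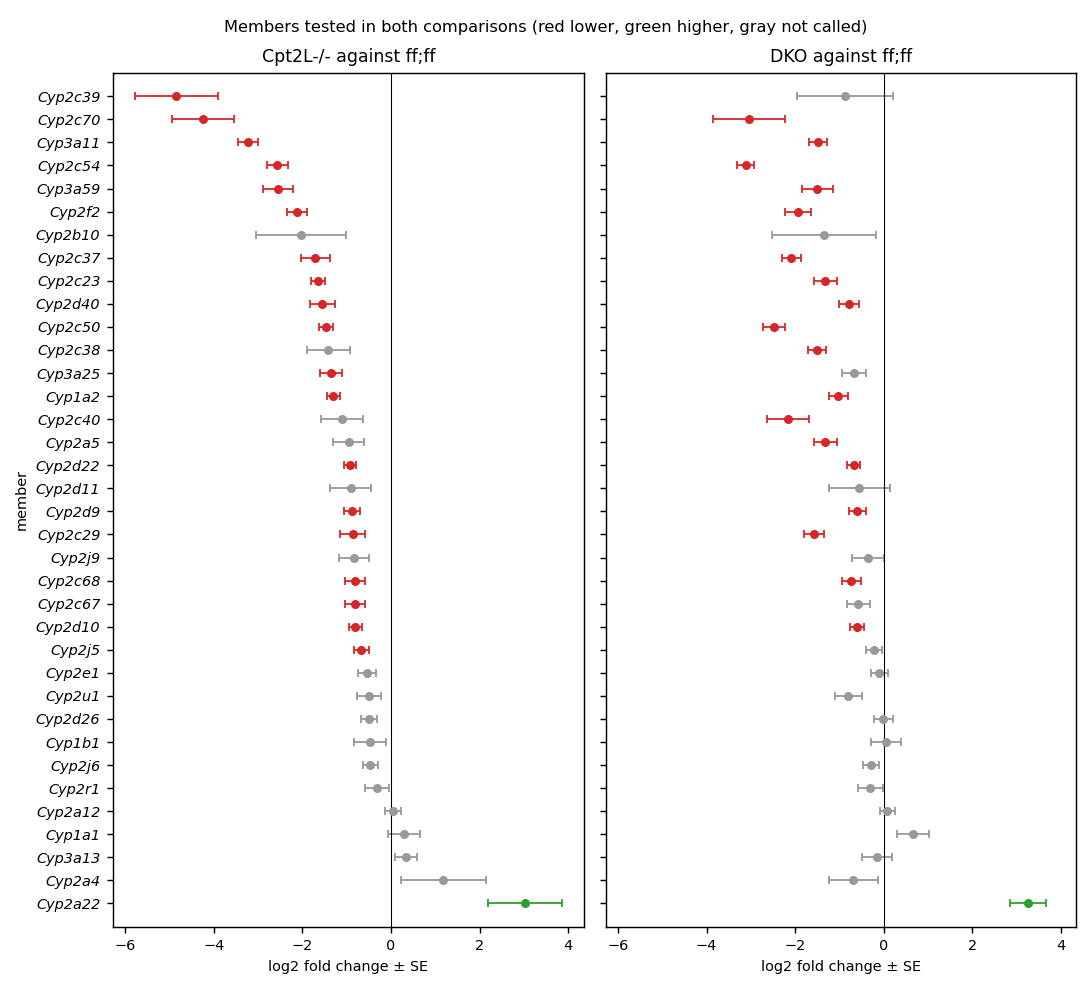
Log2 fold change with its SE (x axis) for the 36 members tested in both comparisons (y axis, ordered by their change in Cpt2L-/- livers), against ff;ff livers in both panels. Red points were called lower, green points higher and gray points neither. Cyp3a11 moves from -3.23 in Cpt2L-/- to -1.47 in DKO livers, and both panels share the same ff;ff livers.

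Outside these clusters the fall was uneven. Cyp2f2, the naphthalene oxidase that marks periportal hepatocytes, was counted at 630, 570, 885 and 626 CPM in ff;ff and at 183, 189, 154 and 97.9 CPM in Cpt2L-/- livers (log2 fold change -2.13 ± 0.22, adjusted p = 2.89e-05, edgeR). Cyp1a2, the caffeine oxidase of pericentral hepatocytes, fell from 271, 241, 195 and 198 CPM to 95.8, 91.0, 89.6 and 92.4 CPM (-1.31 ± 0.15, adjusted p = 4.29e-05, edgeR). A periportal and a pericentral member were thus both lower, in all 4 livers each. Among genes outside the P450 families, 5 of 7 periportal and 6 of 9 pericentral markers were lower and 1 of each was higher. In the Cyp2d subfamily 4 of 6 were lower, Cyp2d9 1.84-fold, Cyp2d10 1.75-fold and Cyp2d22, the mouse relative of human CYP2D6, 1.91-fold, with Cyp2d40 at 2.93-fold. Cyp2j5, another arachidonic acid epoxygenase, fell 1.59-fold.

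The most abundant member did not pass the test. Cyp2e1 was counted at 14547, 13629, 11245 and 10089 CPM in ff;ff and at 10549, 9135, 8092 and 6513 CPM in Cpt2L-/- livers, and the ranges overlapped (log2 fold change -0.54 ± 0.20, adjusted p = 0.0668, edgeR). It made 55.2 to 60.6% of the members' summed CPM in Cpt2L-/- livers. In DKO livers it was at 9675 to 13044 CPM and made 52.1 to 62.0% of that sum. Cyp2a12, a steroid hydroxylase, was at 456 to 657 CPM in ff;ff and 425 to 654 CPM in Cpt2L-/- livers. Cyp2r1, the vitamin D hydroxylase, was at 5.23 to 12.1 and 4.81 to 9.13 CPM. Cyp1a1, the classical Ahr-induced enzyme, was near the limit of detection in every group, at 0.252 to 1.87 CPM. The 1 member called higher was Cyp2a22, at 0.437, 1.77, 1.18 and 0.889 CPM in ff;ff and 9.99, 0.567, 10.04 and 16.05 CPM in Cpt2L-/- livers. Cpt2L-/- 2 lay within the control range, and the call was lost when any liver other than Cpt2L-/- 2 was left out (adjusted p up to 0.0860, edgeR) and with limma-voom (log2 fold change 1.99, adjusted p = 0.253, against 3.04 ± 0.84 by edgeR), without a filter on low counts (0.100) or in the fit over all 24 libraries (0.0608).

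**Figure D3:**
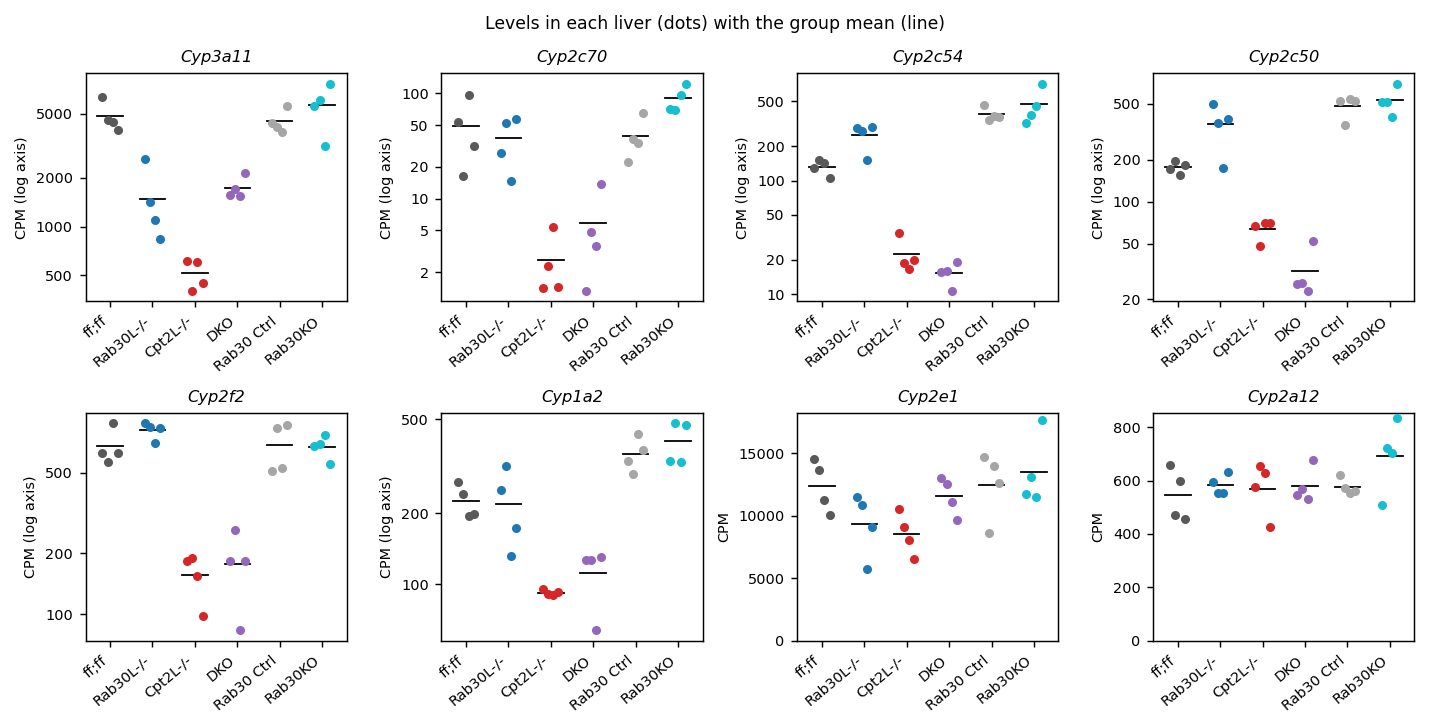
CPM of 8 members (y axes, logarithmic for the first 6 and linear from 0 for Cyp2e1 and Cyp2a12) in the livers of each genotype (x axes). Dots are single livers and lines are group means. Cyp3a11 lies at 401 to 613 CPM in Cpt2L-/- and 3937 to 6348 CPM in ff;ff livers, while the Cyp2a12 ranges of the 6 genotypes overlap.

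In DKO livers the family was lower than in ff;ff livers too. Of 38 members tested 18 were lower and 1 was higher (edgeR's quasi-likelihood test), where 8.24% of all 13389 genes were called lower, 7.87% higher and 16.1% in either direction. In 15 members every DKO liver lay below every ff;ff liver and in 1 above, against 9.92% and 10.6% of all genes. The median log2 fold change was -0.71 over the members and -0.02 over all genes. The DKO and the Cpt2L-/- comparisons share the ff;ff livers, so their values are set side by side only. Called lower in both were 15 members, in Cpt2L-/- alone Cyp2c39, Cyp2c67, Cyp2j5 and Cyp3a25, and in DKO alone Cyp2a5, Cyp2c38 and Cyp2c40. The difference between DKO and Cpt2L-/- livers was called by edgeR for 0 of these 7, of which 4 had an unadjusted p under 0.05, and Cyp2c39 and Cyp3a25 were called by DESeq2's Wald test and, with Cyp2j5, by limma-voom. Hepatocyte markers were lower again, 5 of 6, with a summed level of 48682 to 61953 CPM in DKO livers. Of the 6 Kupffer cell markers 2 were lower and 5 had an unadjusted p under 0.05, with a summed level of 109 to 129 CPM in DKO against 129 to 244 CPM in ff;ff livers. Of the stellate and endothelial markers 0 were called by edgeR, with 1 of 6 and 0 of 5 at an unadjusted p under 0.05, and of the 5 bile duct markers 1 was lower. The part of these markers in the result was not tested.

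Cyp2c54 fell in DKO livers to 15.6, 16.1, 10.7 and 19.0 CPM from the 106 to 151 CPM of ff;ff livers (log2 fold change -3.12 ± 0.20, adjusted p = 1.09e-05, edgeR). Cyp2c50 fell from 171, 195, 156 and 181 CPM to 25.8, 26.2, 23.0 and 52.6 CPM (-2.47 ± 0.25, adjusted p = 9.78e-05, edgeR). Both groups of both genes stood far apart. Cyp2c37 fell 4.23-fold, Cyp2c29 2.97-fold and Cyp2c38 2.84-fold. Cyp2a5 fell from 1101, 1109, 758 and 1078 CPM to 472, 569, 223 and 363 CPM (-1.32 ± 0.26, adjusted p = 0.00479, edgeR), without overlap. Its values in Cpt2L-/- livers were 930, 546, 391 and 231 CPM, which overlapped with ff;ff and did not pass the test (adjusted p = 0.0728, edgeR). Cyp2f2 and Cyp1a2 fell 3.84-fold and 2.03-fold. Cyp2a22 was higher in all 4 DKO livers, at 14.8, 11.03, 11.6 and 5.25 CPM, a log2 fold change of 3.26 ± 0.41 (adjusted p = 0.000365, edgeR), and was not called in the fit over all 24 livers (0.0552). The wild-type Rab30 Ctrl livers stood at 2.51 to 44.4 CPM and the Rab30KO livers at 2.72 to 72.8 CPM, so every DKO value lay within the wild-type range and the ff;ff livers were the low group. Cyp2c40, of which 44.1% of 100-base stretches are shared with other genes, was lower at 0.65 to 1.501 CPM against 1.18 to 6.29 CPM. These ranges overlapped, and the call was lost with limma-voom (log2 fold change -1.44 in place of -2.16, adjusted p = 0.0921) and in the fit over all 24 libraries (0.0702).

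Of the 19 DKO calls, 13 held whichever liver was left out, against 16 of the 20 Cpt2L-/- calls. Lost were Cyp2c70 without DKO 1, 2 or 3 or ff;ff 1, 3 or 4 (adjusted p up to 0.127), Cyp3a59 without DKO 1 (0.050002), and Cyp2d10 without DKO 1, DKO 3 or ff;ff 2 (0.0655). Cyp2d9 and Cyp2d40 were lost without any liver other than ff;ff 3 (0.153 and 0.126), and Cyp2c68 without any DKO liver, ff;ff 1 or ff;ff 4 (0.110, all edgeR). Without a filter on low counts Cyp2c70 and Cyp3a59 were not called either (adjusted p = 0.106 and 0.0974, edgeR). In the fit over all 24 libraries Cyp2d9, Cyp2d40 and Cyp2c68 were not called (0.165, 0.0869 and 0.212), nor Cyp2d9 with DESeq2 size factors (0.0521) or Cyp2c68 with limma-voom (0.0829). Cyp2c70 in DKO livers was at 1.33, 4.84, 3.58 and 13.8 CPM, all below the lowest ff;ff liver at 16.3 CPM. Its log2 fold change of -3.05 ± 0.82 was -3.92 without DKO 4. Its wide spread in both groups was larger than that of Cyp2c54.

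Between DKO and Cpt2L-/- livers, which asks what added loss of Rab30 does without Cpt2, 2 of 36 members were called and both were Cyp3a genes that were higher in DKO livers (edgeR's quasi-likelihood test). DESeq2's Wald test called 6 members and 7.76% of all genes, limma-voom 9 members and 11.5%, and the fit over all 24 libraries 1 of 42 members and 0.782%. By edgeR, of all 13306 genes 2.71% were called in the main test, 1.38% as higher. The groups did not overlap in 2 members, both higher, against 6.29% of all genes higher and 6.73% lower. Of the 9 pericentral genes outside the P450 families 1 was higher and 1 lower, and 0 of 6 hepatocyte markers were called by edgeR, with 3 at an unadjusted p under 0.05. Cyp3a11 was counted at 1568, 1707, 1545 and 2139 CPM in DKO livers, above all 4 Cpt2L-/- livers at 401 to 613 CPM (log2 fold change 1.76 ± 0.17, adjusted p = 0.000254, edgeR), a 3.39-fold higher level. It held in every fit with a liver left out. Cyp3a59 was at 40.2, 50.0, 22.6 and 43.9 CPM in DKO livers against 12.8 to 21.7 CPM (1.06 ± 0.23, adjusted p = 0.0413, edgeR). This call was lost without any liver other than DKO 3 (adjusted p up to 0.119) and in the fit over all 24 libraries (0.137). Cyp2c39 and Cyp2c50 lay near the threshold, with log2 fold changes of 3.98 ± 0.83 and -0.996 ± 0.25 (adjusted p = 0.0570 and 0.0616, edgeR). The DKO levels of Cyp2c50 without the highest liver, DKO 4, were 23.0 to 26.2 CPM, and the adjusted p was then 0.00120. Cyp2c39 was called without DKO 3, at a log2 fold change of 4.37.

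Loss of Rab30 in liver with Cpt2 intact gave no call among 38 members of Rab30L-/- against ff;ff livers by edgeR's quasi-likelihood test. At an unadjusted p under 0.05 there were 7 members, and DESeq2's Wald test and limma-voom each called 5 (Cyp3a11, Cyp3a13, Cyp2c50, Cyp2c54 and Cyp1b1), where they called 2.23% and 1.79% of all genes. By edgeR, of all 13367 genes 0.479% were called, 0.299% as higher and 0.18% as lower. The groups did not overlap in 4 members, of which 2 were higher (Cyp3a13, Cyp2c54) and 2 lower (Cyp3a11, Cyp1b1), against 3.49% of all genes higher and 2.89% lower. Cyp3a11 was counted at 2610, 1412, 1101 and 842 CPM in Rab30L-/- livers, each below the lowest ff;ff liver at 3937 CPM. The log2 fold change was -1.69 ± 0.33 with an adjusted p of 0.0511 (edgeR), and without Rab30L-/- 1 it was -2.12 (adjusted p = 0.00544, edgeR). Cyp3a13 was counted at 237, 671, 217 and 407 CPM, each above the highest ff;ff liver at 138 CPM (1.89 ± 0.36, adjusted p = 0.0571, edgeR). These 2 Cyp3a genes thus lay on opposite sides of the control range, without a call in the main test. Cyp3a13 was called without Rab30L-/- 1 (2.05, adjusted p = 0.0314), without 2 (1.47, 0.0485) and without 3 (2.09, 0.0276, all edgeR). Cyp2c54 was at 290, 270, 153 and 294 CPM, above ff;ff livers at 106 to 151 CPM (0.93 ± 0.22, adjusted p = 0.109, edgeR). Without Rab30L-/- 3, Cyp2c50 and Cyp2c54 were called at 1.25 and 1.11 (adjusted p = 0.00904 and 0.0155, edgeR). Of the cell type, pericentral and periportal markers 0 were called by edgeR. An unadjusted p under 0.05 was found for 3 of 6 Kupffer, 2 of 6 stellate, 1 of 6 hepatocyte, 1 of 5 endothelial and 0 of 4 bile duct markers. It was found for 3 of 9 pericentral and 1 of 7 periportal genes outside the P450 families. The part of these markers in the result was not tested.

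The interaction asks whether the change with Rab30 loss differed between livers with and without Cpt2. It subtracts the log2 change between ff;ff and Rab30L-/- from that between Cpt2L-/- and DKO, and was fitted over 16 livers. It uses the Cpt2L-/- and Rab30L-/- groups, so genotype and litter cannot be told apart here either. Of 39 members tested 6 were called, 2 positive and 4 negative, where 4.06% of all 14063 genes were called, 2.2% positive and 1.86% negative. Of the 9 pericentral genes outside the P450 families 1 was positive and 3 were negative, and of the 6 hepatocyte markers 1 was positive. Of the periportal, Kupffer, stellate, endothelial and bile duct markers 0 were called by edgeR, with 4 at an unadjusted p under 0.05. The part of these markers in the result was not tested. Cyp3a11 had an interaction of 3.45 ± 0.40 on the log2 scale (adjusted p = 6.67e-05, edgeR). Rab30L-/- livers lay below ff;ff livers and DKO livers above Cpt2L-/- livers. Cyp2c50 and Cyp2c54 ran the other way, at -2.02 ± 0.40 and -1.47 ± 0.35 (adjusted p = 0.0107 and 0.0265, edgeR). Cyp3a13 was at -2.37 ± 0.59 (adjusted p = 0.0380, edgeR). The calls of Cyp3a11 and Cyp2c50 held with each of the 16 livers left out. The call of Cyp2c54 was lost without Rab30L-/- 2, Rab30L-/- 4 or ff;ff 1 (adjusted p up to 0.0534), and that of Cyp3a13 without any of 12 livers (up to 0.0790). In the fits with a liver left out, the latter held without Rab30L-/- 1, Rab30L-/- 3, DKO 2 or Cpt2L-/- 4. It was lost too without a filter on low counts (0.0870) and in the fit over all 24 libraries (0.0689).

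**Figure D4:**
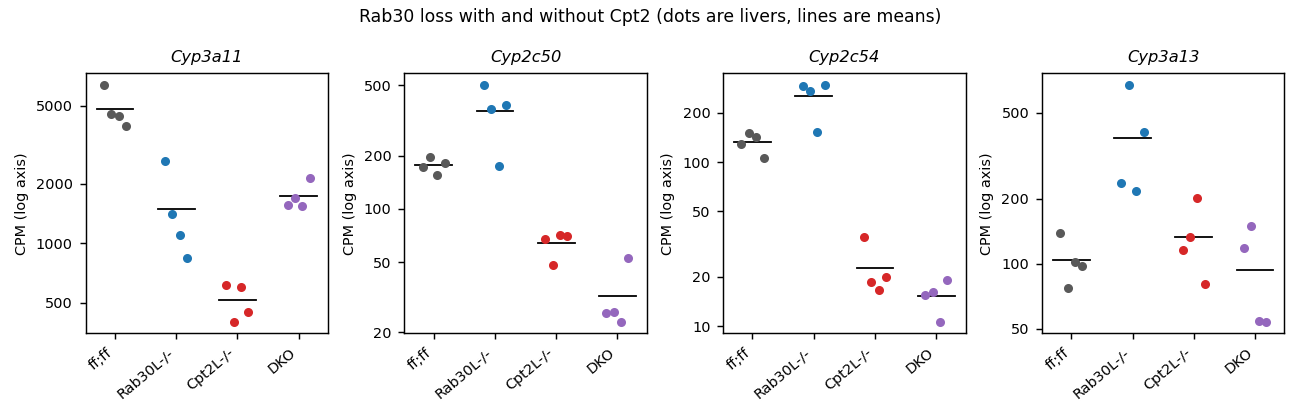
CPM (logarithmic y axes) of Cyp3a11, Cyp2c50, Cyp2c54 and Cyp3a13 in the 4 groups of the liver-specific design (x axes). Dots are single livers and lines are group means. Cyp3a11 is at 842 to 2610 CPM in Rab30L-/- livers and 1545 to 2139 CPM in DKO livers, while Cyp2c54 is at 153 to 294 CPM in Rab30L-/- and 10.7 to 19.0 CPM in DKO livers.

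The other 2 called members of the interaction were at low levels, near the detection limit. Cyp1b1, an estrogen hydroxylase found mostly outside hepatocytes, was at 1.22 to 2.19 CPM in ff;ff, 0.226 to 0.755 in Rab30L-/-, 0.692 to 1.75 in Cpt2L-/- and 1.19 to 2.54 CPM in DKO livers (interaction 2.07 ± 0.56, adjusted p = 0.0447, edgeR). Cyp2g1, a member of the olfactory epithelium, had at most 40 counts in any of these 16 libraries and 0 to 3 in the DKO libraries (-3.48 ± 0.83, adjusted p = 0.0262, edgeR). Neither call held with every liver left out. Cyp1b1 was lost without any of 12 livers (adjusted p up to 0.0853) and Cyp2g1 without Rab30L-/- 4, DKO 4 or Cpt2L-/- 2 (up to 0.0701). Cyp1b1 was lost too without a filter on low counts (0.0535), and Cyp2g1 in the fit over all 24 libraries (0.106).

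Whole-body loss of Rab30 gave no call either. In simulated counts edgeR called 28% of genes changed 2-fold in this comparison and 42.5% in Rab30L-/- against ff;ff livers. It called 60.5% in Cpt2L-/- against ff;ff livers, so an absent call does not show an unchanged gene. Of 39 members tested in Rab30KO against Rab30 Ctrl livers 0 were called by edgeR, by DESeq2's Wald test and by limma-voom, and 2 had an unadjusted p under 0.05, against 0.022% of 13656 genes called. Groups did not overlap in 1 member, higher in Rab30KO, against 0.659% of all genes higher and 0.652% lower. Cyp3a11 was at 5538, 6102, 3171 and 7651 CPM in Rab30KO and at 4399, 4107, 3846 and 5528 CPM in Rab30 Ctrl livers. The groups overlapped, as they did for Cyp2c54 and Cyp3a13. Cyp2c70 was at 71.0, 69.1, 96.5 and 124 CPM in Rab30KO livers and at 22.0, 36.6, 33.6 and 64.4 CPM in Rab30 Ctrl livers. These groups did not overlap, but the call failed the adjustment (adjusted p = 0.999934, unadjusted p = 0.00287, edgeR).

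The 2 control groups were themselves apart for a few Cyp2c genes. In ff;ff against Rab30 Ctrl livers 4 of 40 members were called, all lower (edgeR's quasi-likelihood test), where 0.949% of all 13587 genes were called and 0.736% were lower. In 8 members every ff;ff liver lay below every Rab30 Ctrl liver and in 0 above, against 5.7% and 2.59% of all genes. Cyp2c54 was at 463, 342, 367 and 363 CPM in Rab30 Ctrl livers (log2 fold change of ff;ff -1.51 ± 0.17, adjusted p = 0.00311, edgeR). Cyp2c50 was at 520, 353, 544 and 523 CPM (-1.44 ± 0.18, adjusted p = 0.00468, edgeR). The Rab30L-/- livers, at 153 to 294 CPM for Cyp2c54, lay above the ff;ff livers and below the Rab30 Ctrl livers, and for Cyp2c50, at 175 to 501 CPM, they overlapped with both. The call of Cyp2c29 (-1.56 ± 0.28) was lost without ff;ff 1, 2 or 3 or Rab30 Ctrl 2 (adjusted p up to 0.0645), and that of Cyp2g1 without any liver other than Rab30 Ctrl 1 (up to 0.105, edgeR) and in the fit over all 24 libraries (0.113). Kupffer cell markers were lower in ff;ff livers too, 3 of 6. Of the 5 endothelial markers 0 were called by edgeR, with 2 at an unadjusted p under 0.05. Their summed level was 140 to 205 CPM in ff;ff against 215 to 266 CPM in Rab30 Ctrl livers. Of the hepatocyte, stellate and bile duct markers 0 were called. The part of these markers in the result was not tested.

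Some members took separate levels between livers of the same genotype. Cyp2c39, a retinoic acid hydroxylase, was at 2.98 to 13.5 CPM in 9 livers and at 74.2 to 489 CPM in the other 15, with none between. The low livers were all 4 Cpt2L-/- livers, Rab30L-/- 1 and 3, ff;ff 4, DKO 3 and Rab30 Ctrl 3. Its log2 fold change of -4.85 ± 0.94 in Cpt2L-/- livers (adjusted p = 0.00995, edgeR) therefore set 4 low livers against 3 high livers and 1 low liver, and was -3.89 with limma-voom. Cyp2b10, the standard target of CAR, was at 105 CPM in ff;ff 3 and at 6.67 to 18.5 CPM in the other ff;ff livers, and was called in no comparison. Cyp2a4 was at 69.2 CPM in Rab30L-/- 3 and at 0.151 to 0.990 CPM in the other Rab30L-/- livers. In Rab30 Ctrl livers it was at 16, 1.68, 35.7 and 0.271 CPM. Cyp2b9, like Cyp2a4 a member of female liver, was at 40.9 CPM in Rab30KO 4, where the other 3 were at 0 to 0.152 CPM. In Rab30 Ctrl 3 it was at 32.9 CPM in Rab30 Ctrl 1 at 9.57 CPM and in Rab30L-/- 3 at 5.20 CPM. In the remaining livers it did not exceed 1.03 CPM. The promoter of Cyp2b9 was identical to that of Cyp2b13 over the 120 bases before the start, and Cyp2b13 had at most 2 counts in any liver.

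**Figure D5:**
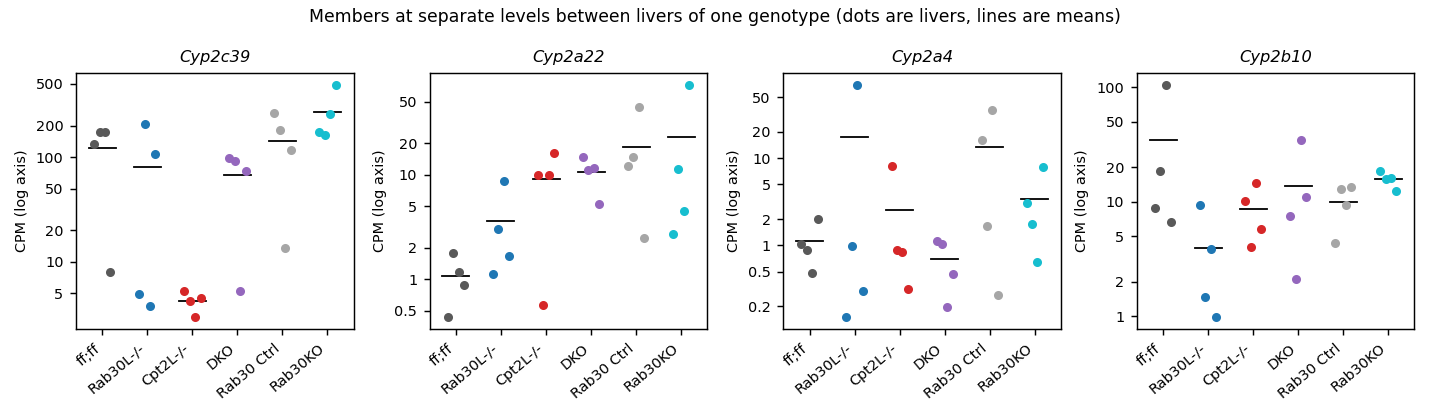
CPM (logarithmic y axes) of Cyp2c39, Cyp2a22, Cyp2a4 and Cyp2b10 in the livers of each genotype (x axes). Dots are single livers and lines are group means. Cyp2c39 falls into 9 livers at 2.98 to 13.5 CPM and 15 livers at 74.2 to 489 CPM, and every genotype except Cpt2L-/- and Rab30KO holds both.

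A list of 18 regulators of the family was examined, of which 17 were tested in Cpt2L-/- and in DKO against ff;ff livers. In Cpt2L-/- livers 3 were lower and 1 was higher, or 23.5% called against 23.8% of all genes, and in DKO livers 17.6% were called against 16.1%. The shares of the list were thus near those of all genes, and the values that follow describe single genes. Ahr fell from 45.5 ± 5.14 to 25.1 ± 1.65 CPM (log2 fold change -0.87 ± 0.14, adjusted p = 0.000565, edgeR). Cebpa fell by 0.54 on the log2 scale. Nr0b2, the corepressor SHP, fell from 21.4 ± 14.0 to 1.40 ± 0.66 CPM (-3.94 ± 0.53, adjusted p = 0.000505, edgeR). CAR (Nr1i3) rose from 30.4 ± 13.8 to 66.8 ± 19.3 CPM (1.12 ± 0.29, adjusted p = 0.0160, edgeR). Its target Cyp2b10 was at 4.03 to 14.6 CPM in Cpt2L-/- and 6.67 to 105 CPM in ff;ff livers. These ranges overlapped, and Cyp2b10 was not called. In DKO livers Cebpa, Foxa2 and Nr0b2 were lower, with log2 fold changes of -0.86, -0.77 and -3.29. PXR (Nr1i2) and Hnf4a were called in neither comparison, with log2 fold changes in Cpt2L-/- livers of -0.10 ± 0.21 and -0.35 ± 0.23. CAR had a negative interaction of -1.83 ± 0.38 (adjusted p = 0.0142, edgeR). Of 13 CAR and PXR targets outside the P450 families 12 were tested: 2 rose and 3 fell in Cpt2L-/- livers, and 3 rose and 3 fell in DKO livers.

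Of 15 electron donors and enzymes of heme metabolism, 3 were lower and 1 higher in Cpt2L-/- livers, and 3 were lower in DKO livers. These shares, 26.7% and 20%, were near the 23.8% and 16.1% of all genes. Cyb5r3, the cytochrome b5 reductase, was lower by 0.50 ± 0.14 and 0.60 ± 0.14 on the log2 scale in Cpt2L-/- and DKO livers. Fech, the last enzyme of heme synthesis, was lower by 0.50 ± 0.13 and 0.55 ± 0.15, and Hmox2 by 0.81 ± 0.15 and 0.70 ± 0.18. Hmox1, the inducible heme oxygenase, rose in Cpt2L-/- livers by 2.05 ± 0.53 (adjusted p = 0.0260, edgeR). Por was called in neither, at -0.43 ± 0.25 and -0.34 ± 0.26. Among P450 genes of other families, 8 of 23 tested were lower and 2 higher in Cpt2L-/- livers, and 3 of 24 were lower and 4 higher in DKO livers.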

How the data were processed

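RNA-seq libraries of 24 livers were made and sequenced by a service company. The authors deposited raw counts per gene, which were used for all tests and levels. Levels per kilobase are CPM divided by gene length. The deposited FPKM values (scaled to gene length and depth) were used only to check which members stood highest. HISAT2, DESeq2 and the build GRCm38 (mm10) are named in the submitters' processing notes. The counter and the use of strand are not given in the sources used here. The authors' tables of fold changes and p-values and their normalized counts were not used.

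Genes were kept by filterByExpr and scaled by TMM. Each comparison was fitted on its 8 livers with edgeR 4.0.16 in R 4.3.3 (robust glmQLFit, glmQLFTest), and p was adjusted by Benjamini-Hochberg over all genes tested. Genes were called at an adjusted p below 0.05 with a difference of 1.2-fold or more. CPM was scaled by TMM over 24 libraries. The median log2 fold change of all genes stayed within 0.02 of 0. The 36 pairs of livers within groups differed beyond counting noise. Labels do not say more on replicates than animal names, so p-values measure the spread between these livers. No molecular identifiers were used, so count limits cover counting error only.

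Alternatives were DESeq2 1.42.0 size factors and its Wald test, limma-voom 3.58.1 with quality weights, other filters, 1 fit over 24 libraries, no fold threshold and each liver left out in turn. The test was checked on simulated counts in which 200 genes were changed 2-fold. It called 24% of them in ff;ff against Rab30 Ctrl livers, the lowest share, and 25.5% in the interaction. The highest share was 63.5%, in DKO against Cpt2L-/- livers. Members, lists and motifs were chosen with earlier results of these data known. The rule named 31 members: 23 well-studied ones, and per comparison up to 6 called members at each end of the log2 fold changes with a mean of at least 1 CPM. Other members named were chosen after their values were seen. Promoters came from RefSeq (GRCm38.p6). Shared sequence was counted in GENCODE transcripts as the share of 100-base stretches found in another gene.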

Additional observations from a re-analysis of the deposited data

Results flagged for a closer look

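In 18 of 143 groups of 4 livers 1 liver stood far from the other 3, by a gap past Dixon's 95% limit for the group's range. The limit assumes normally distributed values, which CPM need not be, and the members were measured in the same livers. The count of flags therefore cannot be set against a chance rate. Only groups with a mean of at least 1 CPM were used, which a single high liver can supply. Cyp1a2 was at 63.8 CPM in DKO 3 and at 127 to 130 CPM in the other 3. In Rab30KO 4, Cyp2a22 stood at 72.8 CPM, with the others at 2.72 to 11.3 CPM. Cyp2a4 was at 69.2 CPM in Rab30L-/- 3 and at 0.151 to 0.99 CPM in the other 3. In Cpt2L-/- 1, Cyp2a4 stood at 8.2 CPM, with the others at 0.312 to 0.881 CPM. Cyp2a5 was at 758 CPM in ff;ff 3 and at 1080 to 1110 CPM in the other 3. In ff;ff 3, Cyp2b10 stood at 105 CPM, with the others at 6.67 to 18.5 CPM. Cyp2b9 was at 5.2 CPM in Rab30L-/- 3 and at 0 to 0.495 CPM in the other 3. In Rab30KO 4, Cyp2b9 stood at 40.9 CPM, with the others at 0 to 0.152 CPM. Cyp2c29 was at 469 CPM in Rab30L-/- 1 and at 202 to 236 CPM in the other 3. In Rab30 Ctrl 4, Cyp2c29 stood at 1010 CPM, with the others at 486 to 570 CPM. Cyp2c37 was at 88.9 CPM in Cpt2L-/- 1 and at 32.7 to 38 CPM in the other 3. In Rab30L-/- 3, Cyp2c40 stood at 8.43 CPM, with the others at 0.825 to 1.96 CPM. Cyp2c50 was at 48.2 CPM in Cpt2L-/- 2 and at 67.3 to 70.9 CPM in the other 3. In DKO 4, Cyp2c50 stood at 52.6 CPM, with the others at 23 to 26.2 CPM. Cyp2c50 was at 353 CPM in Rab30 Ctrl 2 and at 520 to 544 CPM in the other 3. In Rab30L-/- 3, Cyp2c54 stood at 153 CPM, with the others at 270 to 294 CPM. Cyp2u1 was at 8.14 CPM in Cpt2L-/- 1 and at 11.1 to 11.6 CPM in the other 3. In Cpt2L-/- 2, Cyp3a59 stood at 12.8 CPM, with the others at 20.3 to 21.7 CPM.

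Of 39 members tested, 6 were called by the interaction test (edgeR), where 4.06% of all genes were called. The test compares the change with Rab30 loss between livers with and without Cpt2. The calls of Cyp3a11 and Cyp2c50 held with each liver left out, and the other 4 were lost in some of these fits. On the log2 scale the interaction was 3.45 for Cyp3a11, 2.07 for Cyp1b1, -2.02 for Cyp2c50, -1.47 for Cyp2c54, -3.48 for Cyp2g1 and -2.37 for Cyp3a13.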

How the results depend on the processing

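The number of members called in Cpt2L-/- and in DKO against ff;ff livers stayed within 1.5 times its main value under every alternative run, at 17 to 23 and at 13 to 20 with single livers left out. No member with an unadjusted p under 0.05 changed its direction under any of them. The count for Rab30L-/- against ff;ff livers rose from 0 to 1 with DESeq2 size factors, to 5 with DESeq2's Wald test, to 5 with limma-voom, to 4 without a filter on low counts and to 1 in the fit over all 24 libraries, and was 0 to 3 with single livers left out. For DKO against Cpt2L-/- livers it moved from 2 to 6 with the Wald test, 9 with limma-voom and 1 in the fit over all libraries, and was 1 to 5 with single livers left out. For ff;ff against Rab30 Ctrl livers it moved from 4 to 9 with the Wald test, and was 2 to 5 with single livers left out. For the interaction it was 2 to 5 in place of 6 with single livers left out, and for Rab30KO against Rab30 Ctrl livers 0 throughout. The causes were not tested. No paired analysis was possible because the labels' numbers are animal names that no groups share.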

Other observations

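The low Cyp3a16, described above in Cpt2L-/- livers, had 8, 23, 15 and 10 counts in the ff;ff libraries, 1, 0, 0 and 0 counts in the Rab30L-/- libraries and 0, 5, 0 and 0 counts in the DKO libraries. It carries the Hnf4a-type site that Cyp3a11 carries. Among 10 male-biased liver genes outside families 1 to 3, 5 were lower in Cpt2L-/- and 6 in DKO livers against ff;ff (edgeR's quasi-likelihood test), and 0 were higher, where 11.9% and 8.24% of all genes were called lower. Of 5 female-biased genes tested in each comparison, 0 were called by edgeR, with 0 and 3 at an unadjusted p under 0.05.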
